A study of Mus musculus with 36 samples.

Results

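The genes for glutamate and GABA receptor subunits were examined in RNA-seq libraries of 3 mouse olfactory tissues, the main olfactory epithelium (MOE), the vomeronasal organ (VNO) and the olfactory bulb (OB). Members were taken by gene symbol (Gria, Grik, Grin, Grid, Grm, Gabra, Gabrb, Gabrg, Gabrr or Gabbr followed by a digit, and Gabrd, Gabre, Gabrp and Gabrq), and 48 of the 24803 genes in the files matched. Of these, 47 encode receptor subunits, 26 for glutamate and 21 for GABA, and the remaining match encodes no subunit. The 36 libraries came from C57BL/6 mice that were weaned at 3 weeks, kept 4 to a cage and killed at 6 months of age. In each tissue there were 3 libraries of sex-separated females (SF), 3 of sex-separated males (SM), 3 of sex-combined females (CF) and 3 of sex-combined males (CM). The groups differed in sex and in whether a cage held both sexes, and no allele or agent is given for any of them. By the study's methods, sex-separated cages also stood in rooms with mice of a single sex, and litters born in sex-combined cages were removed soon after birth, so that room and breeding cannot be told apart from housing. The 3 tissues were taken from the same mice, so libraries of different tissues share animals. Each library was made from RNA pooled from more than 1 mouse (the sources differ on the number in a pool), so the spread between libraries is a spread between pools, and p-values measure that spread. Levels are given in FPKM, which divides the fragments of a transcript by its length and by the depth of its library, so that genes of different length can be compared within a library.

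Glutamate is the transmitter of olfactory sensory neurons and of the mitral and tufted cells of the bulb, while the granule cells and many periglomerular cells of the bulb release GABA. Ionotropic glutamate receptors (AMPA, kainate and NMDA types) and GABA-A receptors are ion channels assembled from several subunits, and their subunit makeup sets ion selectivity, kinetics and drug response. Metabotropic glutamate receptors and the GABA-B receptor, an obligate pair of Gabbr1 and Gabbr2, act through G proteins and are found on both sides of the synapse, including the terminals of olfactory sensory neurons.

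The tissues carried their own markers. Over the 12 libraries of a tissue, 8 markers of olfactory sensory neurons summed to between 1245 and 2106 FPKM in MOE and to at most 167 FPKM in VNO and 61.4 FPKM in OB. Trpc2, the transduction channel of vomeronasal neurons, had a mean of 43.0 FPKM in VNO, 0.938 FPKM in MOE and 0.199 FPKM in OB. A set of 12 bulb neuron markers summed to between 812 and 1062 FPKM in OB, 34.1 and 59.7 FPKM in MOE and 230 and 321 FPKM in VNO, where 7 of the 12 were under 1% of their OB level. The VNO sum rests mostly on Calb2 and Pcp4, whose VNO means were 123% and 32.5% of their OB means (144 and 259 FPKM). The fragments behind each library, estimated from the confidence limits of FPKM, ranged from 3016524 to 6779893. These estimates are not read counts and lie below the aligned read pairs that the paper lists. In MOE, 3 libraries stood apart: MOE-CF1 had the highest sum of the 6 bulb neuron markers that were under 1% of their OB level in MOE (over all 12 it ranked 4, at 55.2 FPKM, and MOE-SF3 was the highest), MOE-SF2 had 42000 FPKM of 6 nasal gland markers against a median of 12575 FPKM, and MOE-CM3 had the fewest estimated fragments. By the paper, MOE-CM3 had the most input read pairs of the MOE libraries but the lowest percentage of aligned reads. Results that rest on MOE were therefore also computed without these 3 libraries. In bulk tissue, fewer cells of a type and less RNA per cell cannot be told apart.

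Some members are best known through their alternative exons, and the deposited entries of OB separated several of these forms. The 3 stretches below, from mouse transcripts of GENCODE M21 (build GRCm38), are among the exons that tell the forms with the most different shares apart. In Gria1 the flip and flop exons (chr11:57310608-57310722 and chr11:57309769-57309883, plus strand) are mutually exclusive and encode the same stretch near the ligand-binding domain, where they set the speed of desensitization. Both are 115 bases long, and capitals mark the 36 bases at which they differ (68.7% identical). The Grin1 exon of 63 bases (chr2:25311343-25311405, minus strand) adds an extracellular cassette to the obligatory NMDA subunit.
Gria1 flip exon: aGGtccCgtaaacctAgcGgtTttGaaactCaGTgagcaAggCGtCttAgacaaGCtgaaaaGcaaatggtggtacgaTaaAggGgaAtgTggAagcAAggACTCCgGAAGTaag
Gria1 flop exon: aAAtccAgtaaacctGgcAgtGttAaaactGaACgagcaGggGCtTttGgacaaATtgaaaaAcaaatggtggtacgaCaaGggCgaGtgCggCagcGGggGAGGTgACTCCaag
Grin1 exon: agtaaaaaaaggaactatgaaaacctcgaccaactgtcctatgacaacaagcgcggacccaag

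In OB the flop form was the larger part of Gria1. Its entry held 25.5 ± 2.00 FPKM (SD, n = 12) and 66.2 ± 4.98% of the gene's FPKM, between 60.1% and 74.3% in single libraries, while the flip entry held 13.1 ± 2.51 FPKM. For Gria3 the flop form held 50.0 ± 8.27% and the flip form 25.1 ± 6.85%. A further Gria3 entry, which was not sorted into either form, held 22.5 ± 10.1%, between 0% and 37.5% in single libraries. The flop and flip entries of Gria3 also differ in a coding exon of 91 bases, so their split does not measure flip and flop alone. For Gria4 the flop form held 36.8 ± 3.55% and the flip form 6.15 ± 4.64%. Most of Gria4, 57.1 ± 1.81%, was assigned to a short entry of 11 exons (the flop entry has 17) that ends before the flip and flop exons. The Grin1 entry with the 63-base exon held 33.0 ± 5.09%. The main entry without it held 64.3 ± 7.61%, the larger share in every library. That entry also has a coding exon of 111 bases that the other lacks. The split is thus not a measure of the 63-base cassette alone. For Grm5, a group I metabotropic receptor, the entry with an exon of 96 bases (chr7:88116193-88116288, GRCm38, plus strand) held 44.9 ± 9.64%. These forms share most of their sequence, and their split was estimated by Cufflinks from the few fragments that distinguish them.

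The bulb expressed most of the family and the nasal epithelia little of it. At a mean of at least 1 FPKM there were 36 members in OB, 5 in MOE and 6 in VNO, and at least 3 fragments were found in all 12 libraries for 39 of the 47 subunit genes in OB, 17 in MOE and 21 in VNO. Summed over the 26 glutamate receptor genes, the level was 336 ± 24 FPKM in OB, 4.65 ± 0.729 FPKM in MOE and 6.72 ± 0.369 FPKM in VNO (SD, n = 12 each). Summed over the 21 GABA receptor genes, it was 243 ± 22.0 FPKM in OB, 35.0 ± 4.49 FPKM in MOE and 23.2 ± 1.51 FPKM in VNO. The gap between bulb and epithelia was thus wider for glutamate than for GABA receptors, as most of the nasal GABA receptor FPKM belonged to Gabrp and Gabbr1.

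**Figure D1:**
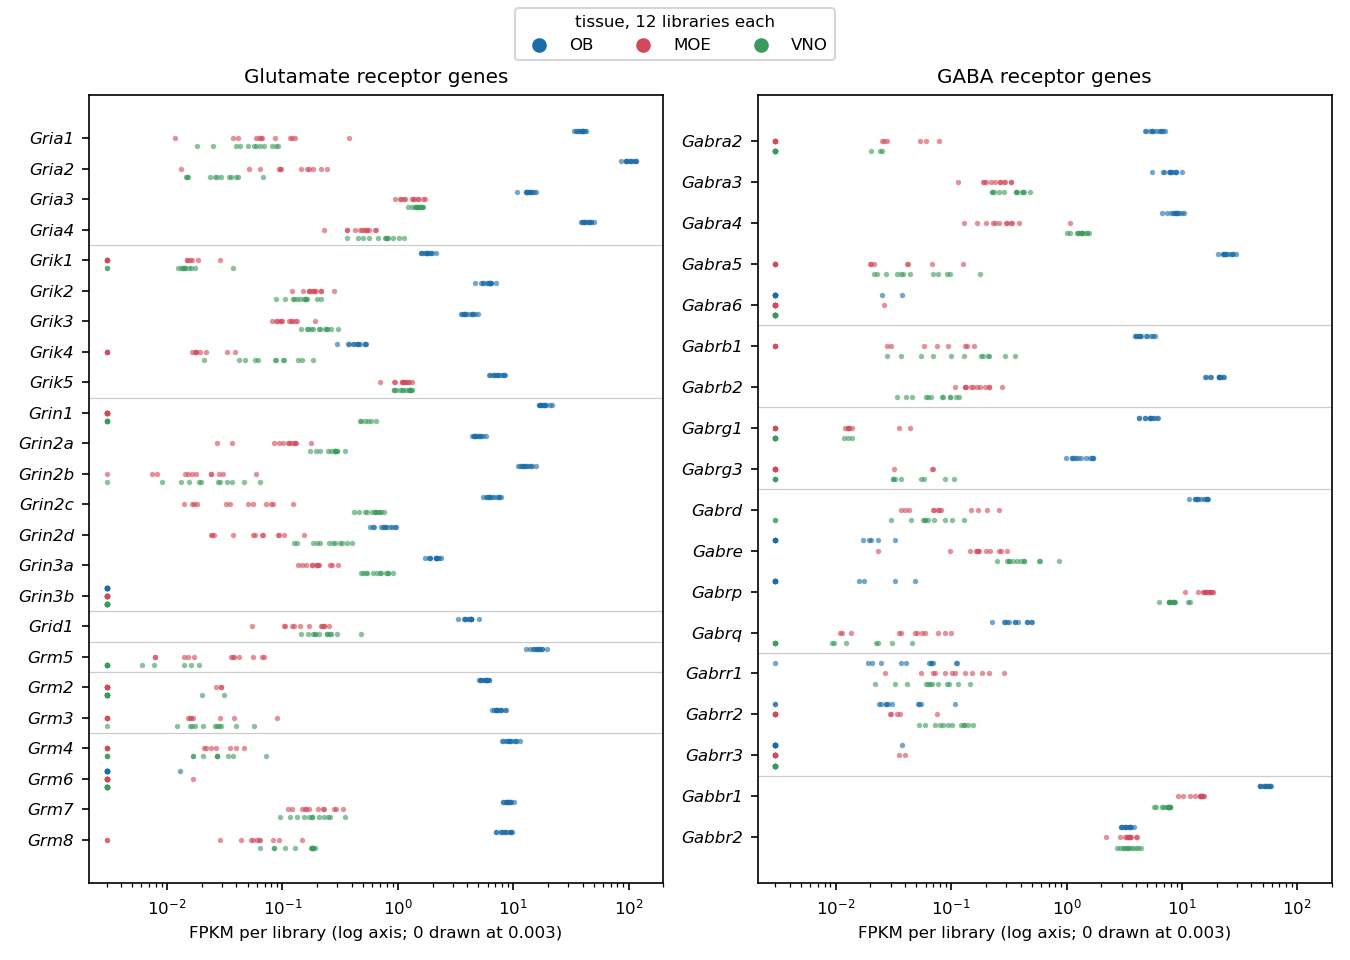
FPKM of glutamate and GABA receptor genes on a log axis, ordered by class, each point 1 of the 12 libraries of OB, MOE or VNO, with values of 0 drawn at 0.003. Most members sit far to the right in OB, while Gabrp sits near 16.5 FPKM in MOE and 8.25 FPKM in VNO and under 0.05 FPKM in OB, and Gabbr2 overlaps between all 3 tissues.

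The differences between tissues were tested by limma on log2(FPKM + 0.5), a scale that understates the change of low genes, with Benjamini-Hochberg adjustment over the 14642 genes with a mean of at least 0.5 FPKM. Of the 48 members 35 were tested. Of these, 25 reached the minimum through OB alone and so had to differ, and their calls say nothing about the family. Between OB and MOE 34 members passed the threshold (adjusted p under 0.05 by limma), 33 of them higher in OB, where 85.1% of all genes tested passed, 39.4% higher and 45.7% lower in OB. Between OB and VNO 34 members passed, 33 of them higher in OB, against 85.8% of all genes, 48.0% higher and 37.8% lower in OB. Between MOE and VNO 19 members passed, 6 higher in MOE and 13 higher in VNO, against 82.6% of all genes (48.6% higher and 34.0% lower in MOE). The libraries of the tissues did not overlap for 51.2% of all genes between OB and MOE, 62.6% between OB and VNO and 34.8% between MOE and VNO. The 10 members with a mean of at least 0.5 FPKM in a nasal tissue included Gria3, Gria4, Grik5, Grin2c, Grin3a, Gabra4, Gabrp, Gabbr1 and Gabbr2. In both comparisons with OB, 8 of these 10 were higher in OB, Gabrp was lower and Gabbr2 did not pass. Without the 3 MOE libraries the counts were 35, 35 and 17 of 36 members tested, and the MOE means were 16.9 FPKM for Gabrp, 14.5 for Gabbr1, 3.56 for Gabbr2, 1.38 for Gria3 and 1.13 for Grik5.

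AMPA receptors mediate fast excitation, and in OB their 4 subunit genes summed to 199 FPKM, the highest of the glutamate classes. Gria2, whose edited subunit makes the channel nearly impermeable to calcium, was the highest member of all, at 85.4 FPKM in the lowest OB library, a median of 103 and 116 in the highest. In MOE its level ran from 0.0133 through 0.121 to 0.242 FPKM, and in VNO from 0.0147 through 0.0282 to 0.0676 FPKM. OB did not overlap with the nasal tissues, and the log2 difference was 7.36 ± 0.053 (SE) from MOE and 7.60 ± 0.053 (SE) from VNO. Gria2 is among the members that reached the minimum through OB alone and so had to differ, and no p-value is given for it. Gria4 had a mean of 43.7 and Gria1 of 38.5 FPKM in OB. Gria3 was the lowest AMPA gene of OB, at 10.8, 13.8 and 15.9 FPKM (lowest, median and highest library), but the highest of both nasal tissues, at 0.946, 1.33 and 1.73 FPKM in MOE and 1.23, 1.49 and 1.66 FPKM in VNO. Its nasal levels overlapped, and its difference between MOE and VNO (log2 -0.14 ± 0.064, adjusted p = 0.0469, limma) did not hold when single libraries were left out (adjusted p up to 0.115) or without the 3 MOE libraries (adjusted p = 0.144).

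Shares within a family of subunits do not move with the scaling of a library, and they differed between bulb and epithelia. Gria2 made up 51.7 ± 1.03% of AMPA FPKM in OB, 6.11 ± 2.95% in MOE and 1.35 ± 0.6998% in VNO. For Gria3 the order was the opposite, with 6.89 ± 0.311% in OB, 65.5 ± 7.43% in MOE and 65.0 ± 7.05% in VNO. Both differences from OB gave an adjusted p = 1.43e-05 for MOE and for VNO (two-sided permutation test, Benjamini-Hochberg adjustment over 40 shares). Before adjustment their p was 1e-05 in this test, the smallest that 100000 resamples allow. The adjusted value depends on how many of the 40 shares reached that limit. Shares of a family depend on each other, so they are not separate results. The share of Gria4 in MOE, 23.9 ± 5.0%, did not differ from the 22.0 ± 0.618% of OB beyond the spread (permutation test, adjusted p = 0.248). In all, 13 of 18 shares tested between OB and MOE and 20 of 22 between OB and VNO passed. The nasal AMPA sums were only 2.02 FPKM in MOE and 2.30 FPKM in VNO, so that these shares rest on few fragments.

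**Figure D2:**
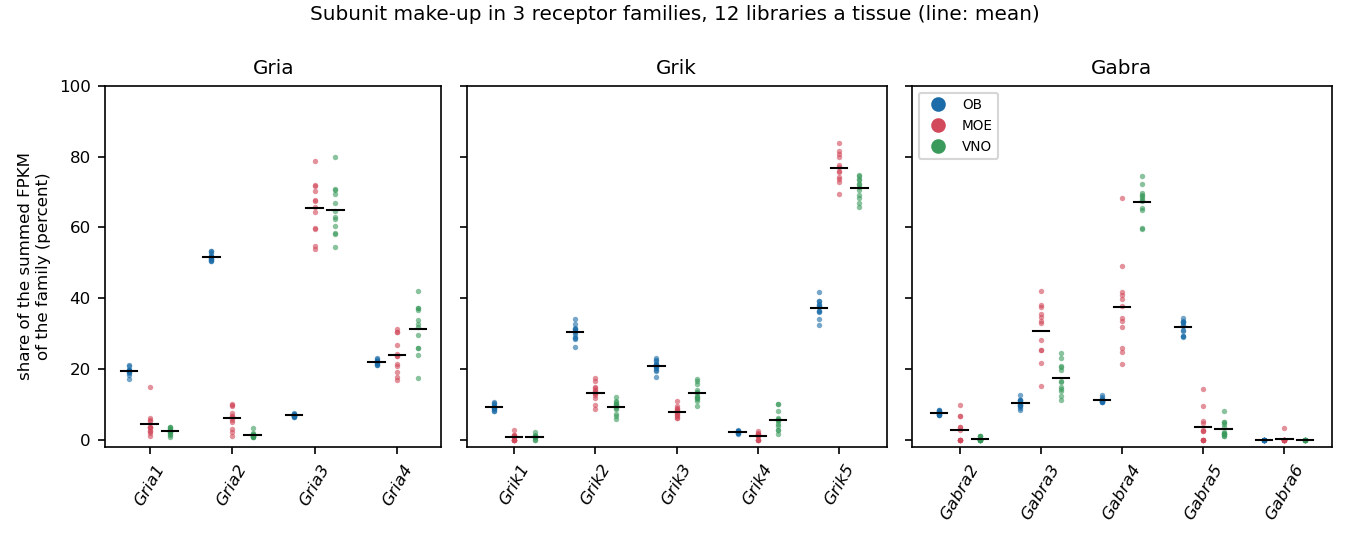
Share of each subunit gene in the summed FPKM of its family, in percent, for subunits of 3 families in OB, MOE and VNO, with 1 point for each of 12 libraries and a line at the mean. Gria2 fills 51.7% of the AMPA family in OB and Gria3 65.5% and 65.0% of it in MOE and VNO, while Gabra4 takes 67.3% of the alpha family in VNO.

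Of the kainate subunits, Grik5 was the highest in each tissue. Grik5, an accessory subunit with high affinity for kainate, ranged over 6.20, 7.32 and 8.55 FPKM in OB, 0.696, 1.12 and 1.32 FPKM in MOE and 0.928, 1.14 and 1.33 FPKM in VNO. OB was clear of both nasal tissues, by 2.30 ± 0.047 and 2.26 ± 0.047 on the log2 scale (SE, limma, adjusted p = 1.01e-27 and 1.69e-27), while the nasal tissues overlapped. The MOE and VNO levels differed by less than the spread (log2 -0.04 ± 0.047, adjusted p = 0.415, limma), with a sign that turned under quantile scaling and with the highest transcript entry, while upper quartile scaling called it lower in MOE (-0.25, adjusted p = 0.000112). It made up 37.3 ± 2.47% of kainate FPKM in OB, 76.9 ± 4.12% in MOE and 71.1 ± 3.00% in VNO (permutation test, adjusted p = 1.43e-05 each). The subunits that form the channel by themselves were lower in the nasal tissues, Grik2 with 5.98 FPKM in OB, 0.188 in MOE and 0.148 in VNO, and Grik3 with 4.11, 0.113 and 0.212 FPKM. Grik1 had 1.81 FPKM and Grik4 0.439 FPKM in OB.

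All NMDA receptors contain the Grin1 subunit. In OB it ran from 16.8 through 18.3 to 21.7 FPKM. It was listed at 0 in all 12 MOE libraries and in 6 of 12 VNO libraries, and the other 6 VNO libraries had 0.474 to 0.641 FPKM, with no value between. A listed 0 may be a failed estimate, so no fold is given against it. Grin1 is among the members counted above, and without it 33, 33 and 18 of 34 tested were called between OB and MOE, OB and VNO, and MOE and VNO. Among the Grin2 subunits, which carry the glutamate site, Grin2b led in OB (11.0, 12.7 and 15.9 FPKM) and was at a mean of 0.0204 FPKM in MOE and 0.0261 FPKM in VNO. Grin2c was the highest of them in VNO, at 0.417, 0.630 and 0.766 FPKM, against 5.51, 6.45 and 7.86 FPKM in OB and a mean of 0.0498 FPKM in MOE, and its VNO libraries did not overlap with those of MOE (log2 -1.01 ± 0.049 in MOE against VNO, adjusted p = 1.67e-17, limma). Its share of Grin2 FPKM was 26.2% in OB and 52.5% in VNO, while that of Grin2b was 51.2% in OB and 2.28% in VNO (permutation test, adjusted p = 1.43e-05 each). Grin3a, a glycine-binding subunit, was the highest NMDA gene of both nasal tissues, with 0.136, 0.198 and 0.304 FPKM in the lowest, median and highest MOE library and 0.479, 0.687 and 0.907 FPKM in VNO, against a mean of 2.08 FPKM in OB. It was 0.73 ± 0.051 higher on the log2 scale in VNO than in MOE (adjusted p = 6.52e-14, limma). Grin2a had 4.94, 0.104 and 0.265 FPKM in OB, MOE and VNO, Grin2d had 0.776, 0.0671 and 0.257 FPKM, and Grin3b was listed at 0 in all libraries. For each of Grin2a, Grin2c, Grin2d and Grin3a the mean was thus higher in VNO than in MOE.

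Grid1, a delta receptor, which binds to presynaptic neurexins through cerebellins rather than acting as an ordinary glutamate channel, had 4.13 FPKM in OB, 0.164 FPKM in MOE and 0.239 FPKM in VNO.

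Metabotropic glutamate receptors were bulb transcripts in these libraries. Grm5, a group I receptor that couples to Gq, was the highest of the family, with 12.9, 16.3 and 19.6 FPKM in the lowest, median and highest OB library. Group II had 7.49 FPKM of Grm3 and 5.65 FPKM of Grm2, and group III, which with group II couples to Gi, had 9.50 FPKM of Grm4, 8.97 FPKM of Grm7 and 8.49 FPKM of Grm8. Grm6, the receptor of retinal ON bipolar cells, gave at most 1 estimated fragment in any library and was listed at 0 in 11 OB, 11 MOE and all 12 VNO libraries. In the nasal tissues Grm7 was the highest, with means of 0.203 FPKM in MOE and 0.194 FPKM in VNO, a pair that overlapped. The means of Grm5 were 0.0339 FPKM in MOE and 0.00526 FPKM in VNO.

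The GABA-A receptor is usually built from alpha, beta and gamma or delta subunits, and in OB each of these classes had a member above 10 FPKM. Of the alpha subunits, Gabra5 had 20.5, 24 and 29.5 FPKM in the lowest, median and highest library, and the means of Gabra4, Gabra3 and Gabra2 were 8.75, 7.97 and 5.94 FPKM. Among the beta subunits Gabrb2 had 15.7, 21.0 and 23.0 FPKM and Gabrb1 a mean of 4.66 FPKM. Of the gamma subunits, Gabrg1 and Gabrg3 had 5.24 and 1.36 FPKM. Gabrd, the delta subunit of extrasynaptic receptors, had 11.4, 14.3 and 16.7 FPKM. Gabra6, the alpha subunit of cerebellar granule cells, was listed at 0 in 10 of 12 OB libraries. Theta (Gabrq) had 0.369 FPKM in OB, and the rho subunits Gabrr1, Gabrr2 and Gabrr3 summed to 0.0915 FPKM.

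The GABA-A genes of OB lie largely in 4 clusters, given here in the coordinates of the files (mm9). On chromosome 11 Gabra6 (chr11:42119939-42134574) and Gabrb2 (chr11:42233259-42446093) are neighbours, and Gabrb2 had a mean of 20.0 FPKM in OB while Gabra6 did not rise above the floor of 3 fragments. The chromosome 5 cluster of Gabrg1 (chr5:71142286-71233856), Gabra2 (chr5:71352296-71487088), Gabra4 (chr5:71960973-72049547) and Gabrb1 (chr5:72091255-72528483) was more even, with means between 4.66 and 8.75 FPKM. On chromosome 7, Gabra5 (chr7:64663039-64765379) had 24.7 FPKM next to Gabrg3 (chr7:63979612-64642241) with 1.36 FPKM. On the X chromosome Gabra3 (chrX:69678015-69902258) had 7.97 FPKM between Gabre (chrX:69502771-69520060) with 0.00940 FPKM and Gabrq (chrX:70070517-70087941) with 0.369 FPKM. Neighbours in a cluster thus differed in level.

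Gabra4 had a level of at least 1 FPKM in every VNO library. It had 1.0, 1.34 and 1.55 FPKM in the lowest, median and highest VNO library and 0.128, 0.280 and 1.08 FPKM in MOE. The groups touched only through MOE-SF2, the library with the most nasal gland transcripts, which held the 1.08 FPKM, and the part of those glands in it was not tested. The difference between MOE and VNO was -1.17 ± 0.093 on the log2 scale (SE, adjusted p = 1.93e-12, limma) and -1.22 without the 3 MOE libraries (adjusted p = 6.35e-15), and in MOE the FPKM were assigned to different transcript entries of the gene in different libraries. Gabra4 took 67.3 ± 4.44% of the alpha FPKM in VNO and 11.3 ± 0.635% in OB (permutation test, adjusted p = 1.43e-05). Gamma subunits were low beside it, with a class sum of 0.0566 FPKM in VNO and 0.110 FPKM in MOE against 39.4 FPKM in OB. Gabre, the epsilon subunit, was highest in VNO, where its libraries ran from 0.249 through 0.387 to 0.854 FPKM. Its levels in MOE were 0.0234, 0.174 and 0.306 FPKM, and in OB it was listed at 0 in 7 of 12 libraries.

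Gabrp, the pi subunit known from the uterus and other epithelia, was the 1 member of the 35 tested that was called lower in OB than in both nasal tissues. It had 10.6, 16.5 and 18.5 FPKM in the lowest, median and highest MOE library and 6.28, 8.25 and 11.9 FPKM in VNO. In OB it was listed at 0 in 8 of 12 libraries and did not exceed 0.0487 FPKM. It was lower in OB than in MOE by 5.01 ± 0.072 and than in VNO by 4.14 ± 0.072 on the log2(FPKM + 0.5) scale (SE, adjusted p = 1.29e-31 and 1.6e-29, limma), sizes that the added 0.5 FPKM limits. Its level was 0.87 ± 0.072 higher in MOE than in VNO (adjusted p = 4.23e-12, limma), where single libraries of the tissues overlapped. Gabrp lies on chromosome 11 (chr11:33450781-33478957, mm9), outside the 4 clusters.

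Both GABA-B genes were detected in all 36 libraries. Gabbr1, which binds GABA, had 47.6, 53.1 and 59.6 FPKM in OB, 9.32, 14.5 and 15.5 FPKM in MOE and 5.71, 7.60 and 7.92 FPKM in VNO. The 3 tissues did not overlap, and Gabbr1 was 1.95 ± 0.072 higher in OB than in MOE and 0.85 ± 0.072 higher in MOE than in VNO on the log2 scale (SE, adjusted p = 4.41e-21 and 7.93e-12, limma). Gabbr2, which couples the pair to its G protein, had 2.96, 3.28 and 3.85 FPKM in OB, 2.22, 3.48 and 4.05 FPKM in MOE and 2.72, 3.41 and 4.42 FPKM in VNO. Its means were 3.33, 3.40 and 3.50 FPKM. The log2 difference of OB from MOE was -0.02 (95% interval -0.16 to 0.12, adjusted p = 0.825, limma) and from VNO -0.05 (-0.19 to 0.09, adjusted p = 0.467, limma). Upper quartile scaling moved the median log2 difference of all genes from 0.12 to -0.13 between OB and VNO and from 0.15 to -0.09 between MOE and VNO. Under it Gabbr2 was called lower in OB than in VNO (-0.35, adjusted p = 1.65e-05) and lower in MOE than in VNO (-0.30, adjusted p = 0.000114). The mean of Gabbr1 exceeded that of Gabbr2 in every tissue.

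The promoters of 3 members that differ in this pattern are printed from RefSeq (GRCm38.p6), each from 250 bases before to 50 bases after the annotated start, for the bulb gene Gria2 (chr3:80802786-80803085), the nasal gene Gabrp (chr11:33578908-33579207) and the even gene Gabbr2 (chr4:46991665-46991964), all on the minus strand. Of the 48 members 33 could be matched to promoters by symbol. They held 26 CpG pairs for Gria2, 4 for Gabrp and 46 for Gabbr2, beside a median of 7 over all 32851 promoters and of 12 over 41 promoters of members. Both strands were searched for the 21-base RE1 motif, the binding sequence of the repressor REST, with up to 2 mismatches at its 19 fixed bases. It was found in 10 of the 32851 promoters (0.0304%) and in 1 of the 41 of members, that of Gria2, where capitals mark the match on the opposite strand, at bases 77 to 97 of the window with 2 mismatches. A match is a description of the letters and not a measured binding site.
Gria2 promoter: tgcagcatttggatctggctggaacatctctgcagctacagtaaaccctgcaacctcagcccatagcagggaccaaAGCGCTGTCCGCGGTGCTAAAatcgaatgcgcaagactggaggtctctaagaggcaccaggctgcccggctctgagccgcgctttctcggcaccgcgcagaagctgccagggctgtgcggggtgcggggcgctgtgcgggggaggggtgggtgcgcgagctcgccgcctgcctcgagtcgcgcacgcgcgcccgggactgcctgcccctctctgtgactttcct
Gabrp promoter: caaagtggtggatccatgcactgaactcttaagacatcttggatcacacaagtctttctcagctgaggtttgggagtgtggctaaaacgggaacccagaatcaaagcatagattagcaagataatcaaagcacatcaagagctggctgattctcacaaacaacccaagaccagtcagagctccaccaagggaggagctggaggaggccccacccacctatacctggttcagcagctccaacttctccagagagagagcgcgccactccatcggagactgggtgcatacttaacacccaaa
Gabbr2 promoter: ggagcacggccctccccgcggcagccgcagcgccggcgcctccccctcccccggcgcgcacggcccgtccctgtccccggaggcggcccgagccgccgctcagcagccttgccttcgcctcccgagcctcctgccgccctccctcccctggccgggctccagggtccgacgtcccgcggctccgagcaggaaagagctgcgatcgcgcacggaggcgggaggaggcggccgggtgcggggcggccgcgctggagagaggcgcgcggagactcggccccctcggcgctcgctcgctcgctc

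Bulb transcripts in the nasal samples were measured beside the low members. Relative to OB, the 37 members with at least 0.5 FPKM in OB had a median level of 0.857% in MOE and 1.71% in VNO, with 19 of them under 1% in MOE and 16 in VNO. The 12 bulb neuron markers had medians of 1.08% and 0.451%. Of the 19 members under 1% in MOE, 11 were at their highest in MOE-CF1, where they summed to 2.51 FPKM, or 0.674% of their sum in OB. In the other MOE libraries this share ran from 0.117% in MOE-CM3 to 0.348%. Grin1, listed at 0 throughout MOE, is 1 of the 19. The 6 bulb markers that were likewise under 1% in MOE had 0.553% in MOE-CF1 and 0.0404% to 0.398% elsewhere, and 4 of them peaked in that library. The other 6 bulb markers peaked in other libraries, and the sum of all 12 was highest in MOE-SF3 (59.7 FPKM, against 55.2 FPKM in MOE-CF1). Whether the low nasal levels come from bulb tissue in the sample was not tested.

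**Figure D3:**
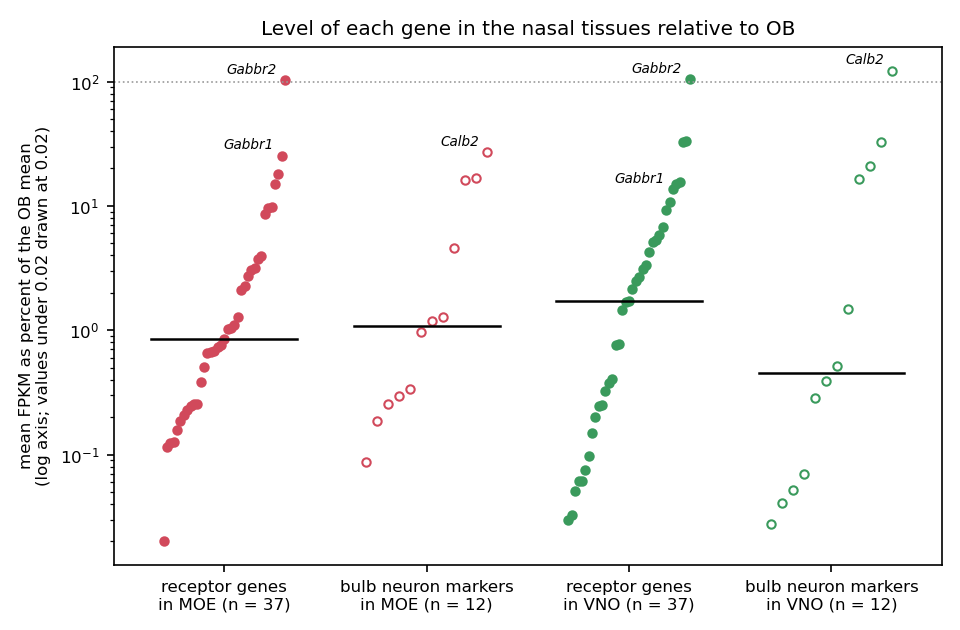
Level of each member in MOE and in VNO as percent of its mean in OB, on a log scale, for the 37 members with at least 0.5 FPKM in OB (filled points) and the 12 bulb neuron markers (open points), with a line at each median and values under 0.02% drawn there. Gabbr2 lies near 100% in both tissues, Gabbr1, Grik5 and, with its transcript entries summed, Gria3 above 5%, and 19 members lie under 1% in MOE.

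**Figure D4:**
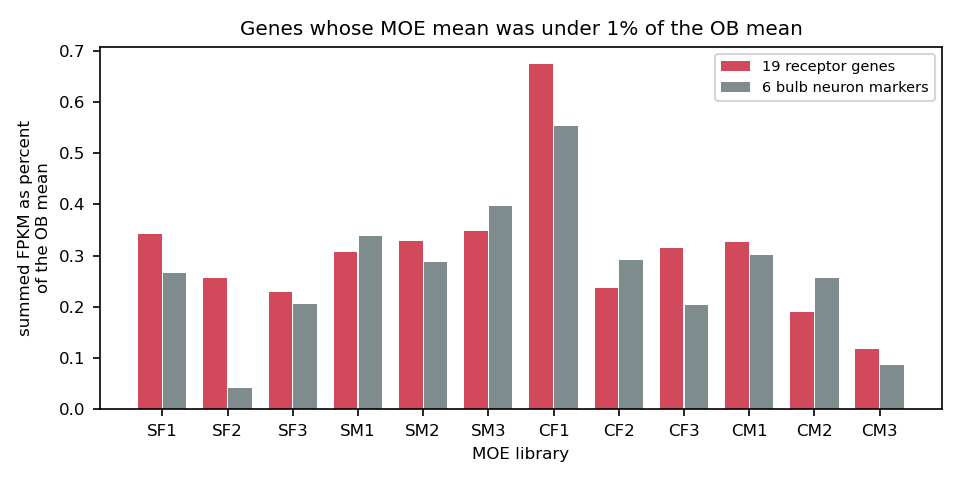
Summed FPKM in each MOE library, as percent of the same sum in OB, of the 19 members and of the 6 bulb neuron markers that lie under 1% in MOE. MOE-CF1 is the highest library for both sets (0.674% and 0.553%), while MOE-SF3 was the highest for the sum of all 12 bulb neuron markers.

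Other genes of the 2 transmitter systems, taken from 4 lists, also differed between the tissues. As with the members, a gene that reached the minimum of 0.5 FPKM through OB alone had to be higher in OB, which held for 3, 11, 6 and 1 genes of the lists in the order given here. Of 11 genes of glutamate release, uptake and metabolism that were tested, 9 were higher and 2 lower in OB than in either nasal tissue (limma, adjusted p under 0.05, background percentages as above), with a median log2 difference of 2.25 from MOE and 2.56 from VNO, beside -0.07 and 0.12 over all genes tested. Glul, the glutamine synthetase of glia, had means of 284, 60.1 and 44.7 FPKM in OB, MOE and VNO, and the glial transporter Slc1a3 had 94.0, 2.65 and 1.79 FPKM. Slc17a7, the vesicular transporter of mitral and tufted cells, had 58.9, 0.111 and 0.0162 FPKM. Slc17a6, the vesicular glutamate transporter of olfactory sensory neurons, went the other way, with 5.11 ± 0.616 FPKM in OB, 22.1 ± 3.14 in MOE and 6.51 ± 0.851 in VNO (log2 -2.01 ± 0.077 and -0.32 ± 0.077, adjusted p = 1.18e-20 and 0.000342, limma). It and Slc1a4, an exchanger of neutral amino acids (5.84, 9.34 and 8.60 FPKM), were the 2 that were lower in OB, and both are named here after their values were seen.

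Of 30 auxiliary and scaffold proteins of AMPA, kainate and NMDA receptors, 26 were higher and 3 lower in OB than in MOE, and 30 were higher in OB than in VNO. Of the 19 with a mean of at least 0.5 FPKM in a nasal tissue, 15 were higher and 3 lower in OB than in MOE, and 19 were higher in OB than in VNO. Over all genes tested, 39.4% were higher and 45.7% lower in OB than in MOE, and 48.0% were higher and 37.8% lower in OB than in VNO. Dlgap1, a postsynaptic scaffold, had means of 30.6, 0.270 and 0.598 FPKM in OB, MOE and VNO. Cnih2, an AMPA auxiliary subunit, had 17.1 FPKM in OB and was listed at 0 in both nasal tissues. Dlg1 (25.1, 33.4 and 14.7 FPKM), the secreted pentraxin Nptx2 (13.5, 22.7 and 5.04 FPKM) and Homer2 (7.07, 10.7 and 4.91 FPKM) were the 3 that were higher in MOE, and Homer2 was named after its values were seen.

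Of 10 genes of GABA synthesis, release and uptake, 9 were higher and 1 lower in OB than in either nasal tissue, and of the 4 with at least 0.5 FPKM in a nasal tissue 3 were higher and 1 lower. Gad1, which makes GABA from glutamate, had means of 180 FPKM in OB, 0.236 FPKM in MOE and 1.36 FPKM in VNO. The exception was Slc12a2, the chloride importer known to keep chloride high in olfactory sensory neurons, with 13.0, 62.9 and 50.9 FPKM. Of 13 proteins that anchor or assist GABA receptors, 9 were higher and 3 lower in OB than in MOE, and 9 were higher and 4 lower in OB than in VNO. Of the 12 with at least 0.5 FPKM in a nasal tissue, 8 were higher and 3 lower in OB than in MOE, and 8 were higher and 4 lower than in VNO. Beside both GABA lists, 39.4% of all genes tested were higher and 45.7% lower in OB than in MOE. Against VNO these shares were 48.0% and 37.8%. Gabarap was lower in OB, with 34.6, 63.9 and 52.5 FPKM. Among the auxiliary subunits of the GABA-B receptor, named after their values were seen, Kctd12 was highest in OB (26.1, 9.69 and 17.4 FPKM in OB, MOE and VNO) and Kctd16 was highest in MOE (3.56, 15.1 and 5.63 FPKM). Kctd16 was lower in OB than in MOE by 1.92 ± 0.117 on the log2 scale (SE, adjusted p = 1.32e-15, limma). Of the receptor genes, Gabbr1 was higher in OB than in MOE, while Gabbr2 did not pass (log2 -0.02, adjusted p = 0.825, limma).

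Sex and housing were compared within each tissue, as SF with SM, CF with CM, SF with CF, SM with CM and by the interaction of sex and housing, since mice kept with or without the other sex meet different odors. The members tested numbered 5 in MOE, 10 in VNO and 37 in OB, and 0 passed in any of the 15 comparisons (limma, adjusted p under 0.05). Of all genes tested, 0.0944%, 0.0436%, 0.0363%, 0.0654% and 0.029% passed in the 5 MOE comparisons in that order, 0.0721%, 0.0433%, 0.0%, 0.0% and 0.0% in VNO, and 0.039%, 0.0468%, 0.00781%, 0.0% and 0.00781% in OB. Without adjustment, a p under 0.05 was reached by 0 members in all 5 MOE comparisons (4.16%, 1.76%, 2.03%, 6.93% and 4.59% of all genes). In VNO it was reached by 1, 0, 2, 0 and 1 members (8.79%, 3.94%, 11.0%, 2.31% and 5.26% of all genes) and in OB by 2, 2, 1, 3 and 2 (4.58%, 5.69%, 2.8%, 3.4% and 4.12%). The 95% interval of a difference between 2 groups reached a median of 0.389 to each side in MOE, 0.280 in VNO and 0.253 in OB on the log2 scale. Those intervals are not adjusted for the number of genes tested, so that larger differences could also fail to pass.

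The groups of 3 libraries did not overlap for few members. In the order SF with SM, CF with CM, SF with CF and SM with CM, these were 1, 0, 0 and 0 members in MOE (14.2%, 4.13%, 10.4% and 13.4% of all genes), 2, 0, 1 and 0 in VNO (14.5%, 8.71%, 15.6% and 7.93%) and 3, 4, 3 and 4 in OB (8.59%, 10.2%, 5.86% and 7.83%). When limma weighted each library by its own spread, the count of calls rose to 1 in MOE SF against SM (12.9% of all genes called), 3 in OB SF against SM (11.0%), 12 in OB SM against CM (24.5%) and 1 in the OB interaction (3.19%), and it stayed at 0 in the other comparisons. The 12 called in OB were higher in SM than in CM and included Grin1, Grin2b, Grin3a, Grik3, Gria1 and Grm4.

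In OB, Grin2c was the member with the smallest p between females and males in both housings. Its libraries had 6.14, 6.13 and 5.84 FPKM in SF and 7.86, 7.31 and 7.47 FPKM in SM, with 6.33, 5.89 and 5.51 FPKM in CF and 6.56, 6.82 and 7.49 FPKM in CM. Females and males did not overlap in either housing. The log2 difference was -0.30 ± 0.083 in SF against SM (SE, adjusted p = 0.995, limma) and -0.22 ± 0.083 in CF against CM (adjusted p = 0.866, limma), so that it did not pass the correction. With library weights Grin2c was called in SF against SM (adjusted p = 0.00717, limma), where 11.0% of all genes were called, but not in CF against CM. Gabrb2 differed by 0.26 ± 0.134 in CF against CM (adjusted p = 0.870, limma).

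The other members with the smallest p in OB had differences no larger than 0.33. Grik3 differed by -0.22 ± 0.101 in SF against SM and by 0.26 ± 0.101 in SM against CM, comparisons that share the SM libraries. Grm4 and Grik5 differed between SM and CM by 0.22 each, Grm4 and Grin3a between SF and CF by 0.16 and -0.14, and Grin1 between SF and SM by -0.20. Grin3a and Grin2b gave interactions of -0.32 and -0.33. The limma adjusted p of each of these was 0.999 or 1 without library weights. With them, Grik3, Grm4 and Grik5 were called between SM and CM (adjusted p = 0.00578, 0.0261 and 0.00732, limma), where 24.5% of all genes were called. The interaction of Grin3a was also called (adjusted p = 0.0465, limma, 3.19% of all genes), and the other differences named here were not. Over the OB comparisons the median difference of the 37 members lay between -0.10 and 0.09, beside -0.07 to 0.03 for all genes.

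**Figure D5:**
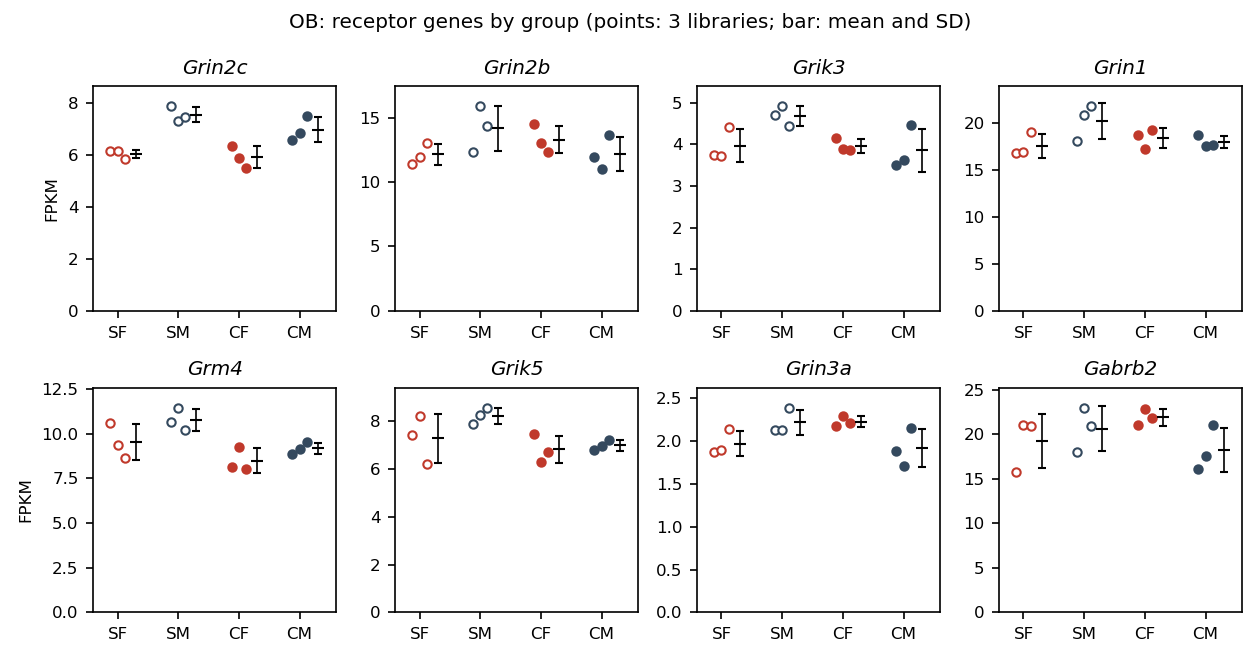
FPKM in OB of 8 members among those with the smallest p in the comparisons of the 4 groups, 1 point for each of the 12 libraries and a bar at the mean and SD of each group of 3. Grin2c is lower in SF and CF than in SM and CM, with limma adjusted p of at least 0.866 without library weights. With them SF against SM was called (limma, adjusted p = 0.00717, 11.0% of all genes called).

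In VNO, Grik5 had the smallest p in 3 comparisons. It had 0.960, 0.928 and 0.933 FPKM in SF, 1.28, 1.05 and 1.17 in SM, 1.33, 1.31 and 1.24 in CF and 1.11, 1.25 and 1.08 in CM. The SF libraries lay below all others, with a log2 difference of -0.31 ± 0.090 in SF against CF (SE, adjusted p = 0.383, limma), of -0.21 ± 0.090 in SF against SM (adjusted p = 0.556, limma) and an interaction of -0.33 ± 0.127 (adjusted p = 0.895, limma). Gabbr1 and Gabbr2 each differed by -0.27 in SF against CF (adjusted p = 0.416 and 0.460, limma), where the median of all genes differed by -0.10. The 6 markers of neurons in general summed to 49.8 to 57.0 FPKM in SF and 57.2 to 66.8 FPKM in CF, the 6 markers of vomeronasal sensory neurons to 129 to 144 and 148 to 153 FPKM, and the 12 bulb neuron markers to 242 to 266 and 275 to 321 FPKM. SF lay below CF in all 3 lists without overlap, and the bulb list rests mostly on Calb2 and Pcp4 in VNO. By the paper, RNA integrity in VNO was higher in the SF than in the CF samples. The part of the lists and of RNA integrity in these differences was not tested. Grin3a had means of 0.702 FPKM in SF, 0.525 in SM, 0.817 in CF and 0.656 in CM (adjusted p = 0.623 and 1 between the sexes, limma), a direction that turned in SF against SM when the highest transcript entry stood for the gene. Gabrp differed by -0.31 ± 0.161 in CF against CM (adjusted p = 1, limma).

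In MOE, Grik5 again had the smallest p between SF and SM (-0.32 ± 0.159, adjusted p = 1, limma), with group means of 0.901 and 1.24 FPKM and no overlap, and this was the member called with library weights. Without MOE-SF2 the difference was -0.21. Gabrp had 17.2 FPKM in SF and SM, 15.2 in CF and 14.8 in CM, and its difference of 0.24 ± 0.196 between SM and CM (adjusted p = 0.719, limma) was 0.024 without MOE-CM3 (adjusted p = 0.964, limma), the library with the fewest estimated fragments and the lowest Gabrp level (10.6 FPKM). The 95% intervals of Gria3, Gabbr1 and Gabbr2 held 0 in every MOE comparison.

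Of the genes of the 4 lists of the transmitter systems, 1 passed in a comparison of groups, Gad1 in VNO between SF and SM. It had 0.936, 0.799 and 0.550 FPKM in SF, 1.76, 1.85 and 1.70 in SM, 1.18, 1.23 and 1.03 in CF and 1.63, 2.09 and 1.58 in CM. Females lay below males in both housings without overlap, by 0.86 ± 0.126 on the log2 scale in SF against SM (SE, limma, adjusted p = 0.0298, 0.0721% of all genes called) and by 0.46 ± 0.126 in CF against CM (adjusted p = 0.777, limma). The call held in 9 of 21 alternative settings, and in 5 of the 12 fits that left out 1 library (adjusted p up to 0.341 over the settings), with the same direction in all of them. Gad1 was named after its values were seen. Gad2 stayed at or below 0.107 FPKM in all VNO libraries, and the 12 bulb neuron markers overlapped between SF (242 to 266 FPKM) and SM (230 to 292 FPKM). That sum rests mostly on Calb2 and Pcp4 in VNO, so it says little of bulb tissue, whose part was not tested.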

How the data were processed

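Total RNA depleted of ribosomal RNA was sequenced as stranded read pairs of 50 bases in 36 libraries, 3 for each of 12 combinations of tissue, sex and housing, and groups were taken from the sample labels. The values used are the deposited FPKM, which the authors computed with Cufflinks 2.2.1.0 for each RefSeq transcript after alignment with TopHat2 2.1.0 to mm9 (tools, versions and build per the submitters' processing notes). The 40150 entries in MOE and 40008 in VNO and OB were named by RefSeq identifier (99.7% of entries) and summed by gene symbol, and 6, 2 and 2 genes without a successful estimate in a library were left out of MOE, VNO and OB. FPKM was not rescaled. Fragments were estimated by squaring the quotient of FPKM and its standard error, with a floor of 3. They cover counting error only, since reads that carry no molecular identifier are not separate molecules. The deposited confidence limits served for this alone.

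Tissues were compared in 1 fit of limma 3.58.1 in R 4.3.3 (lmFit, then eBayes with trend) on log2(FPKM + 0.5) over all 36 libraries, and groups in 1 fit per tissue over 12 libraries, for genes with a mean of at least 0.5 FPKM, with Benjamini-Hochberg adjustment over all genes tested. Subunit shares were compared by two-sided permutation tests (100000 resamples) in families with a summed mean of at least 0.5 FPKM in both tissues. Sequences came from GENCODE M21 transcripts and RefSeq promoters, and no mm9 coordinate was converted. Python 3.11.15, numpy 2.4.6, pandas 2.3.3, scipy 1.17.1 and matplotlib 3.10.9 were used, and the limma step was tested on simulated data. Members and gene lists were chosen with earlier results of these data known. The rule for naming took the highest members of each receptor class per tissue, every member called higher in a nasal tissue than in OB, and the 3 members with the smallest p in each comparison of groups. From each list it took the 2 genes with the highest mean and the 2 with the largest change, and other genes are marked as named after their values were seen. Some genes that this rule takes are not reported here. Alternatives were pseudocounts of 0.1 and 1, no filter, upper quartile or quantile scaling, the highest transcript entry of a gene, library weights (arrayWeights), the replicate number as a block, only the libraries compared, each library left out in turn and, chosen after seeing the data, the fits without 3 MOE libraries.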

Additional observations from a re-analysis of the deposited data

How the results depend on the processing

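Between OB and either nasal tissue 34 members were called, and 33 to 37 in the other settings, apart from 42 of 47 tested without a filter. Upper quartile scaling added Gabbr2 between OB and VNO (35 of 35). Between MOE and VNO, 19 members were called, 17 to 20 with a library left out and 13 to 24 in the other settings, but 5 of 8 tested when only the MOE and VNO libraries entered the fit, since fewer members then reached the minimum of 0.5 FPKM. Library weights called 1 member in MOE SF vs SM, 3 in OB SF vs SM, 12 in OB SM vs CM and 1 in the OB interaction, where every other setting called 0 in all group comparisons, and the cause was not tested.

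With the replicate number as a block, 34, 34 and 19 members were called between tissues and 0 in each of the 15 group comparisons, and no call of a member changed. Between tissues the block was the pool (group and number). The tissues came from the same mice, but no source says whether the same number marks the same mice in each tissue, and the numbers mark no shared batch in the labels. Deviations of the same pool number correlated at -0.237 to 0.160 across tissues (median 0.00952, over 0.1 in 5 of 36 pairs), and same-numbered libraries across groups were over 0.1 in 3 of 18 pairs in MOE, 2 of 18 in OB and 8 of 18 in VNO, so the values do not show that the numbers pair the samples.

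Directions turned for differences that did not pass as reported, of which upper quartile scaling called Gabbr2 and Grik5 between MOE and VNO (-0.30 and -0.25). Between MOE and VNO, Gabbr2 was 0.0151 with library weights and 0.0237 without the 3 MOE libraries, Grik5 was 0.0896 under quantile scaling and 0.20 with the highest transcript entry, Gabrg1 and Grm2 were -0.00185 and -0.00475 under quantile scaling, and Grm7 was -0.0679, -0.00304 and -0.0115 under upper quartile scaling, quantile scaling and weights. Gabbr2 in MOE was -0.0140 and -0.0246 in CF vs CM and -0.0191 and -0.0395 in SM vs CM under upper quartile and quantile scaling. Gria3 in MOE was 0.15 in CF vs CM with the highest entry and 0.000245 in SF vs CF with weights, the MOE interaction of Gabbr1 was 0.22 with weights, and Grin3a in VNO SF vs SM was -0.0901 with the highest entry. With 1 library left out, the range crossed 0 in MOE for Gabbr1 in SM vs CM (-2.26e-05 to 0.31) and in the interaction (-0.31 to 0.00734), for Gabbr2 in SF vs SM (-0.32 to 0.0378) and for Gria3 in CF vs CM (-0.29 to 0.0221). It also did for Gabrp in the VNO interaction (-0.00904 to 0.31), Gabbr2 in MOE vs VNO (-0.0721 to 0.0174) and OB vs MOE (-0.0711 to 0.0184), and Grm7 in MOE vs VNO (-0.00516 to 0.0467). For these results the cause was not tested.

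Depth limits the low members most: 11 subunit genes in MOE and 12 in VNO reached 3 estimated fragments in no library. Percentages of the OB level also moved when the highest transcript entry stood for the gene. For Gria3 they went from 9.59% to 2.56% in MOE and from 10.8% to 3.27% in VNO. For Grik5 they went from 14.9% to 16.4% in MOE and from 15.5% to 14.5% in VNO.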
